A study of Mus musculus with 6 samples.

Results

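The kinases described here are the salt-inducible kinases (SIK), the microtubule affinity-regulating kinases (MARK), the NUAK kinases and SNRK, a set of AMPK-related enzymes. They were chosen as the rows of the deposited gene table whose symbol is Sik1, Sik2, Sik3, Mark1, Mark2, Mark3, Mark4, Nuak1, Nuak2 or Snrk, which gave 10 of 55450 genes. Poly(A) RNA of the left liver lobe was sequenced from 6 mice, 1 library per mouse. Per the labels, the knockout (KO) group held 3 mice with loxP-flanked LKB1 alleles (LKB1 fl/fl) and the wild-type (WT) group 3 mice with a normal genotype. All 6 mice were of strain C57BL/J as the labels spell it, received AAV8 Cre at 6 weeks of age and were 10 weeks old when the liver was taken, 4 weeks after the virus. AAV8 Cre is an adeno-associated virus that carries the Cre recombinase, which removes DNA between loxP sites, so the controls also carried the virus and Cre. The promoter that drives Cre is not given in the sources used here.

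LKB1, encoded by Stk11, is a serine/threonine kinase that switches on AMPK and its relatives by phosphorylating a threonine in their activation loop. The SIK enzymes phosphorylate the CRTC coactivators and class IIa histone deacetylases, which are then held in the cytoplasm by 14-3-3 proteins. In liver, glucagon acts through protein kinase A to inhibit the SIK enzymes, so that CRTC coactivators enter the nucleus and act with the transcription factor CREB on genes of gluconeogenesis. Sik1 is itself a CREB target gene. The MARK enzymes phosphorylate microtubule-associated proteins and act in cell polarity, and the NUAK enzymes phosphorylate the targeting subunit of myosin phosphatase. SNRK is a further relative that LKB1 can activate.

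The coding sequence of the activation loop is shown for all 10 members because it holds the site through which loss of LKB1 acts on each of these kinases, a step in the protein that RNA counts do not measure. The stretches run from the codons of the conserved start of the loop (Asp-Phe-Gly) to those of its end (Ala-Pro-Glu or Ser-Pro-Glu), 5′ to 3′ on the coding strand, from the GENCODE release M21 transcript with the longest coding sequence. Capitals mark the codon of the threonine that LKB1 phosphorylates.
Sik1: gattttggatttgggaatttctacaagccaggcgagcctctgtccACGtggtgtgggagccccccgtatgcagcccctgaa
Sik2: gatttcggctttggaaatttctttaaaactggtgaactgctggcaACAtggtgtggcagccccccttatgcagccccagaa
Sik3: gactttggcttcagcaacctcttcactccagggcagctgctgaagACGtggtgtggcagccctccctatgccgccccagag
Mark1: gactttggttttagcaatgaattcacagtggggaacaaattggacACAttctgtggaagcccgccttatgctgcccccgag
Mark2: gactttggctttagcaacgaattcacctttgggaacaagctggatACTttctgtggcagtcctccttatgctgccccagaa
Mark3: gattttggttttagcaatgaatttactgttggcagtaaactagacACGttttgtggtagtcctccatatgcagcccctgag
Mark4: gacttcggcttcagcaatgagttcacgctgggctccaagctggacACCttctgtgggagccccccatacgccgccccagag
Nuak1: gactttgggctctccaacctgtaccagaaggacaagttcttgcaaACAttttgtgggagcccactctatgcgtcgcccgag
Nuak2: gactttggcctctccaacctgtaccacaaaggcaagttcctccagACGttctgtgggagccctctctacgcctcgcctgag
Snrk: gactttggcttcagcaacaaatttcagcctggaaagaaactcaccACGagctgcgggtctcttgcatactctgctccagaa

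Each stretch is 81 bases long, and in all 10 members the codon 2 places before the threonine codon encodes leucine. The threonine is residue 182 of the Sik1 protein, 175 of Sik2, 221 of Sik3 and 173 of Snrk. It is residue 215, 208, 211 and 214 in Mark1 to Mark4, and 212 and 220 in Nuak1 and Nuak2, each counted in the transcript used. Over the last 36 bases, from the threonine codon on, the SIK genes were 83.3% to 88.9% identical to each other, the MARK genes 77.8% to 83.3% and the NUAK pair 83.3%. Snrk stood apart, with 44.4% to 63.9% identity to the other members, and was 58.3% to 63.9% identical to Prkaa1 and Prkaa2, which encode the catalytic subunits of AMPK. In GRCm38 coordinates the Sik1 stretch lies at chr17:31850986-31851235 on the minus strand, the Nuak2 stretch at chr1:132329964-132330044 on the plus strand and the Snrk stretch at chr9:122137484-122137564 on the plus strand. The Sik1 range includes an intron.

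Total counts per library ran from 47659122 to 56147667. Stk11, the deleted gene, was at 22.1, 14.4 and 11.4 CPM (counts scaled to a common library size) in the 3 KO libraries and at 66.1, 64.2 and 69.7 CPM in the 3 WT libraries, so the libraries fell on the sides their labels give. Replicate 1 of each group carried Xist counts and almost no Y-linked counts, and the other 4 libraries the reverse, which the labels do not describe. Log2 differences within these 2 kinds of library are therefore given for the 10 kinases and for the genes called in the lists, where the Xist pair is 1 library against 1. Hepatocyte markers such as Alb and Ttr were present in every library. Over 6 markers the summed level was 20153 to 63759 CPM in KO and 72467 to 113142 CPM in WT. Of the 6, 0 passed the threshold given below in edgeR, and 3 were under 0.05 before adjustment, as were 26.3% of all genes. DESeq2 called 4 of them, against 15.8% of all genes, and limma voom 1, against 432 of 14539 genes. Most of the summed level was Alb, and the 6 markers did not all lie lower in KO. Alb (10395 to 50550 CPM in KO, 57064 to 95626 in WT), Apoa1 (888 to 2690 and 5994 to 7500) and Ttr (1656 to 3261 and 5058 to 5348) were lower without overlap. The groups overlapped for Asgr1. Cps1, an enzyme of the urea cycle, was at 6042 to 12440 CPM in KO and 3361 to 3960 CPM in WT. Hnf4a was at 542 to 670 CPM in KO and 524 to 539 CPM in WT, and both were higher in KO without overlap. Thus 5 of the 6 markers had no overlap, against 32.4% of all genes tested. Per the labels each library is a separate mouse.

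Among the 10 kinases, Sik1 alone passed the test in the comparison of KO with WT liver, and it was higher in KO. The other SIK genes and all MARK genes differed by a log2 fold change of at most 0.22 in size. Nuak2 and Snrk were lower in every KO library than in any WT library but missed the threshold. All 10 members passed the filter on low counts, with 26 to 16005 counts per library. Calls were made at an adjusted p-value under 0.05 from the quasi-likelihood test of edgeR over 14539 genes, a rule that called 3.37% of all genes, 2.15% as higher and 1.22% as lower. With 1 of 10 members higher and 0 lower, the count of members called is too small to set apart from that background. Before adjustment, 3 members (Sik1, Nuak2 and Snrk) had p-values under 0.05, against 26.3% of all genes.

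**Figure D1:**
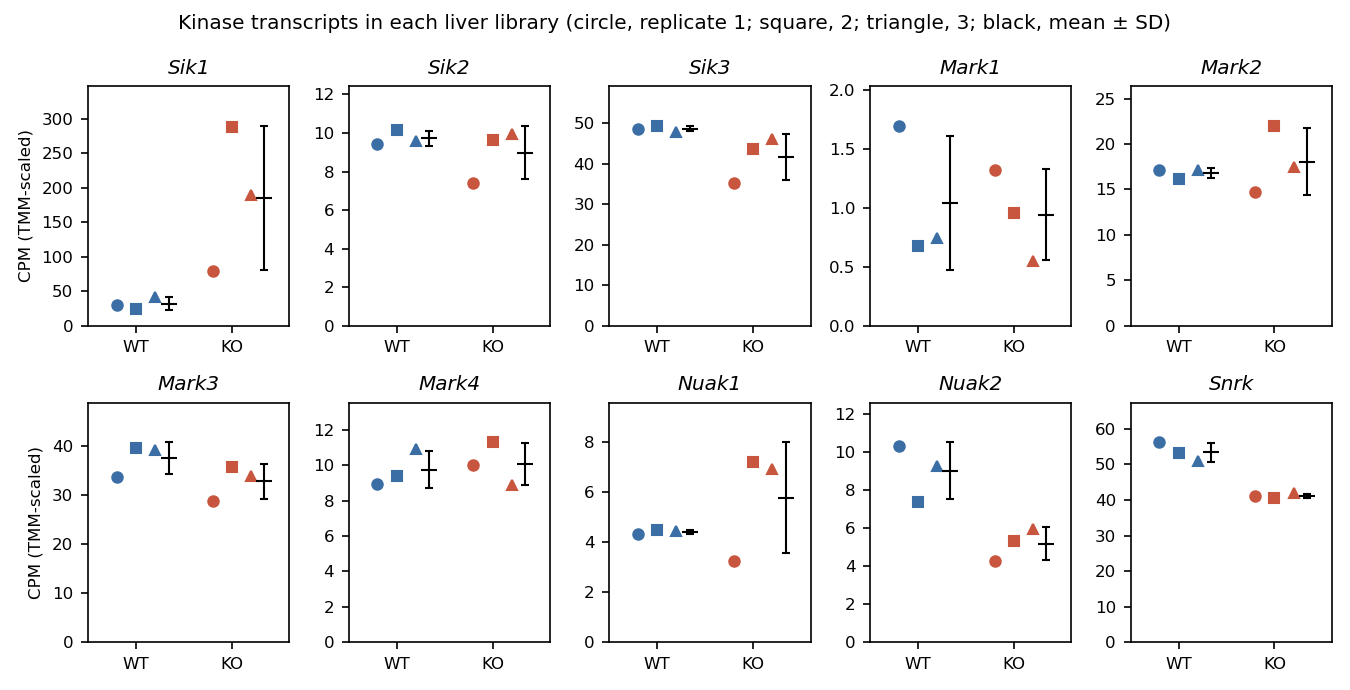
Normalised level of each of the 10 kinase transcripts in the 6 liver libraries, in CPM on a linear axis that starts at 0. Each point is 1 mouse, with the mean ± SD of 3 libraries in black. Sik1 lies higher in all KO libraries (79.9 to 288 CPM) than in any WT library (24.0 to 42.4 CPM), and Nuak2, Snrk and Sik3 lie lower in all KO libraries than in any WT library.

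Sik1 (ENSMUSG00000024042.7, chromosome 17, 31844250 to 31855804, minus strand) encodes the SIK enzyme whose transcript is induced by cAMP and other signals. It was at 79.9, 288 and 189 CPM in KO replicates 1 to 3 and at 30.5, 24.0 and 42.4 CPM in WT replicates 1 to 3. The groups did not overlap, and KO 1 was the lowest of the KO libraries. The mean rose from 32.3 ± 9.33 to 186 ± 104 CPM (SD, n = 3 each), a log2 fold change of 2.52 ± 0.47 (SE) or 5.75-fold, and its adjusted p-value was 0.044 in edgeR. The log2 difference was 1.39 in the Xist pair and 2.87 in the Y-linked libraries. An edgeR fit of those 4 Y-linked libraries gave an adjusted p-value of 0.00402 and called 33.3% of all genes. The call over all libraries was close to the threshold. It was lost when KO 2, KO 3, WT 1, WT 2 or WT 3 was left out, with adjusted p-values of 0.0979, 0.169, 0.106, 0.211 and 0.162, while the log2 fold change stayed between 2.06 and 2.77. Without KO 1 it was 2.88, with an adjusted p-value of 0.00241, in a fit that called 30.2% of all genes.

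Sik2 (chromosome 9, 50892801 to 51009073, minus strand) encodes a second SIK enzyme that acts on CRTC coactivators. Its level was 7.39, 9.61 and 9.93 CPM in KO and 9.42, 10.1 and 9.60 CPM in WT, so the groups overlapped. Its log2 fold change was -0.11 ± 0.16 (SE, adjusted p = 0.671 in edgeR), with -0.35 in the Xist pair and -0.014 in the Y-linked libraries. The last exons of Sik2 share 1429 of the 9539 exon bases of the gene with exons of Ppp2r1b on the opposite strand. The use of strand in the counting is not given in the sources used here, so reads within the shared bases may not be assigned to the right gene of the pair. Ppp2r1b was at 15.0, 11.0 and 11.4 CPM in KO and 19.3, 22.8 and 21.8 CPM in WT (adjusted p = 0.0507).

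Sik3 (chromosome 9, 46012820 to 46224194, plus strand) encodes the third SIK enzyme. It was at 35.2, 43.7 and 46.1 CPM in KO and at 48.7, 49.3 and 47.9 CPM in WT. Every KO library lay below every WT library, and KO 1 was again the lowest. The log2 fold change of -0.22 ± 0.13 (SE) did not pass the threshold (adjusted p = 0.329). It was -0.47 in the Xist pair and -0.11 in the Y-linked libraries, and -0.12 in edgeR without KO 1.

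The 3 SIK transcripts were also set side by side per length, as CPM divided by the kilobases of exon sequence of the gene. In WT, Sik1 made up 48.9%, 42.4% and 57.3% of the summed SIK level and Sik3 made up 43.0%, 48.0% and 35.7%. Sik2 supplied the remaining 6.98% to 9.64%. In KO the share of Sik1 was 77.4%, 90.8% and 86.0%. The summed SIK level per kb was 20.1, 61.8 and 42.8 in KO and 12.2, 11.0 and 14.4 in WT, so it was higher in every KO library. The sum of Sik2 and Sik3 alone was 4.55, 5.70 and 5.99 CPM per kb in KO and between 6.15 and 6.35 in WT. These values describe transcripts, not enzyme activity, and no test was run on the sums.

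**Figure D2:**
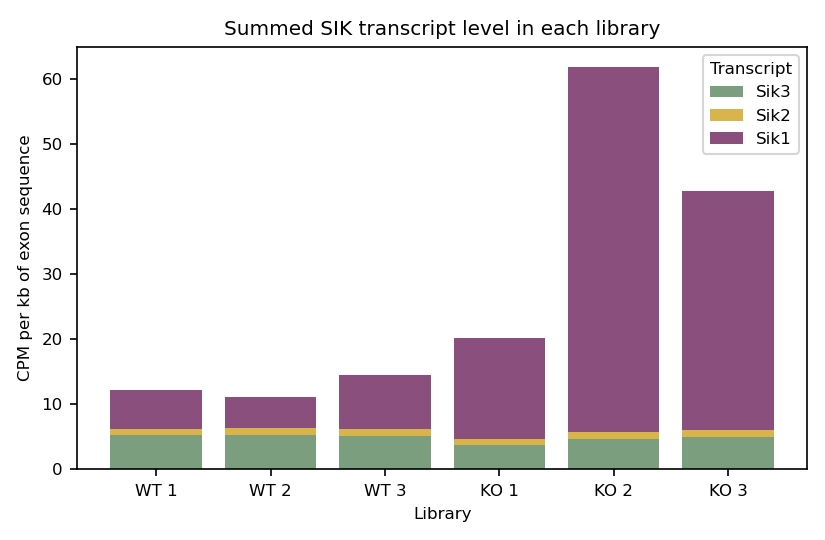
Summed level of the 3 SIK transcripts in each library, in CPM per kb of exon sequence, with 1 stacked bar per mouse starting at 0. The Sik1 part reaches 15.6 to 56.1 CPM per kb in KO against 4.67 to 8.26 in WT. The Sik2 and Sik3 parts together are lower in every KO library (4.55 to 5.99) than in any WT library (6.15 to 6.35).

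None of the 4 MARK genes passed the test in edgeR, DESeq2 or limma voom, 0 of them had an unadjusted p-value under 0.05, and the 2 groups overlapped for each of them. Mark3 (chromosome 12, 111574523 to 111656221), also known as C-TAK1, was the most abundant per length, at 28.8, 35.7 and 33.8 CPM in KO and 33.7, 39.5 and 39.0 CPM in WT. Its log2 fold change was -0.19 ± 0.13 (SE, adjusted p = 0.393 in edgeR), and -0.11 without KO 1. Mark2 (chromosome 19, 7275396 to 7341860), the PAR-1 homologue that acts in epithelial polarity, was at 14.7, 22.0 and 17.5 CPM in KO and between 16.2 and 17.1 CPM in WT. Its KO libraries spread more widely than its WT libraries, with an SD of 3.68 against 0.538 CPM. KO 2 was above and KO 1 below all WT libraries, and the log2 fold change was 0.10 ± 0.16 (adjusted p = 0.724).

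Mark4 (chromosome 7, 19424775 to 19458821), which phosphorylates the microtubule proteins tau and MAP2, was at 10.0, 11.3 and 8.87 CPM in KO and 8.91, 9.39 and 10.9 CPM in WT, which gave a log2 fold change of 0.04 ± 0.15 in edgeR (adjusted p = 0.874). Mark1 (chromosome 1, 184896789 to 184999570) was the least abundant member. It was at 1.32, 0.95 and 0.55 CPM in KO and 1.70, 0.67 and 0.75 CPM in WT, from 26 to 86 counts per library. Replicate 1 was the highest of its group in both KO and WT, and the log2 fold change was -0.14 ± 0.49 (adjusted p = 0.88). The log2 difference of KO against WT, in the Xist pair and then in the Y-linked libraries, was -0.34 and 0.032 for Mark1, -0.22 and 0.23 for Mark2, -0.23 and -0.18 for Mark3, and 0.16 and -0.018 for Mark4. The signs of the Mark1 and Mark4 values turned over when single libraries were left out and in the Y-linked libraries alone. That of Mark2 turned over when KO 2 was left out, with a log2 fold change of -0.059. The pseudogenes Mark1-ps1, Mark1-ps2 and Mark4-ps had 0 counts in all 6 libraries.

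The NUAK genes showed different patterns. Nuak2 (chromosome 1, 132316126 to 132333488, plus strand) encodes a stress-responsive NUAK kinase and is known as a target gene of the coactivator YAP. It was at 4.25, 5.33 and 5.96 CPM in KO and at 10.4, 7.41 and 9.30 CPM in WT. The groups did not overlap, and the means were 5.18 ± 0.864 and 9.02 ± 1.49 CPM (SD, n = 3 each). Nuak2 thus stood at 0.574 times its WT level, or -0.80 ± 0.20 on the log2 scale (SE), and its adjusted p-value in edgeR was 0.0732. It was -1.26 in the Xist pair and -0.55 in the Y-linked libraries. DESeq2 placed it past the threshold (adjusted p = 0.00774), as did edgeR without KO 1 (log2 fold change -0.68, adjusted p = 0.0388), under rules that called 15.8% and 30.2% of all genes. When any other single library was left out the edgeR adjusted p-value ran from 0.159 to 0.246.

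Nuak1 (chromosome 10, 84370905 to 84440597, minus strand), also called ARK5, encodes the kinase of the pair best known for phosphorylating the myosin phosphatase subunit MYPT1. It was at 3.24, 7.18 and 6.90 CPM in KO and at 4.32, 4.47 and 4.45 CPM in WT. KO 1 lay below all WT libraries, and KO 2 and KO 3 lay above them. The WT libraries were close together, with an SD of 0.0837 CPM against 2.20 CPM in KO. Over all 6 libraries the log2 fold change was 0.39 ± 0.31 (SE, adjusted p = 0.453 in edgeR). The Xist pair gave -0.40 and the Y-linked libraries 0.65. Without KO 1 the log2 fold change was 0.67 with an adjusted p-value of 0.0182, and in the Y-linked libraries alone the adjusted p-value was 0.0241, a rule that called 33.3% of all genes. When any other single library was left out it ran from 0.600 to 0.778 in edgeR. Stellate cell and fibroblast markers (Lrat, Reln, Des, Pdgfrb, Col1a1 and Dcn) had a summed level of 94.7 to 201 CPM in KO and 158 to 342 CPM in WT, with none of the 6 at 0, and their part in the values of Nuak1 was not tested.

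Snrk (chromosome 9, 122117266 to 122169702, plus strand) encodes the SNF1-related kinase SNRK, known from work on endothelium, heart and fat tissue. It was at 41.1, 40.7 and 41.9 CPM in KO and at 56.2, 53.2 and 50.9 CPM in WT. The KO libraries were nearly alike, and all lay below the lowest WT library. The mean was 41.2 ± 0.631 CPM in KO and 53.4 ± 2.67 CPM in WT (SD, n = 3 each), a log2 fold change of -0.37 ± 0.10 (SE) that missed the threshold (adjusted p = 0.0877 in edgeR). The log2 difference was -0.45 in the Xist pair and -0.33 in the Y-linked libraries. The adjusted p-value was 0.0238 in DESeq2, 0.031 in edgeR without KO 1 and 0.0442 in the Y-linked libraries alone, under rules that called 15.8%, 30.2% and 33.3% of all genes. It ran from 0.186 to 0.284 in edgeR when any other single library was left out and was 0.0925 in limma voom. The sum of endothelial markers (Stab2, Clec4g, Pecam1, Kdr, Oit3 and Lyve1) was also lower in KO. It was 114, 89.2 and 66.8 CPM in KO 1 to 3 and 196, 141 and 140 CPM in WT 1 to 3. Of the 6, 5 were lower without overlap, against 15.5% of all genes, while Lyve1 overlapped (4.39, 8.08 and 1.83 CPM in KO, 10.0, 4.01 and 4.55 CPM in WT). The log2 fold change was also negative for all 6 stellate cell and fibroblast markers, 5 of 6 macrophage markers and all 4 tested lymphocyte markers. None of the 6 endothelial markers was at 0, and 0 of them passed the threshold in edgeR, 3 in DESeq2 and 0 in limma voom. In edgeR 5 had an unadjusted p-value under 0.05. Of all genes, DESeq2 called 15.8%, and 26.3% were under 0.05 before adjustment in edgeR. Their part in the level of Snrk was not tested, and in bulk tissue fewer cells of a type and less RNA per cell cannot be told apart.

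Separate groups were common among all genes as well as among the kinases. Of the 10 members, 4 had no overlap between KO and WT, 1 of them higher and 3 lower in KO, against 32.4% of all genes tested, 16.9% higher and 15.5% lower. The median log2 fold change of the members was -0.13, against 0.01 over all genes, and the median size of the change was 0.21 against 0.33. Thus 8 of the 10 members lay within 0.4 log2 units of no change, with Nuak2 at -0.80 and Sik1 at 2.52 outside that range.

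Per length of exon sequence, Snrk was the most abundant of the 10 transcripts in WT liver, at 9.24 ± 0.461 CPM per kb (SD, n = 3). Sik1 followed at 6.29 ± 1.82, Sik3 at 5.22 ± 0.0728 and Mark3 at 3.86 ± 0.335. Nuak2, Mark2 and Mark4 came next at 2.30 ± 0.381, 2.12 ± 0.0677 and 2.09 ± 0.225, and the libraries of Mark2 overlapped with those of both others. Sik2 at 1.02, Nuak1 at 0.785 and Mark1 at 0.239 CPM per kb came last. Sik1 and Sik3 also overlapped in WT, whereas every other pair of neighbours was separate.

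In KO liver Sik1 was first at 36.2 ± 20.3 CPM per kb, with its lowest library at 15.6 above the highest Snrk library at 7.25. Snrk, Sik3 and Mark3 kept their order behind it, at 7.13, 4.47 and 3.38 CPM per kb. Nuak2 moved from the fifth to the seventh place, at 1.32 CPM per kb, and its KO libraries overlapped with those of Nuak1 at 1.03. The order depends on the length assigned to each gene. With the longest transcript in place of the exon union, Sik3 was above Sik1 in WT, at 7.74 against 7.14 CPM per kb, and Sik1 was still first in KO.

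**Figure D3:**
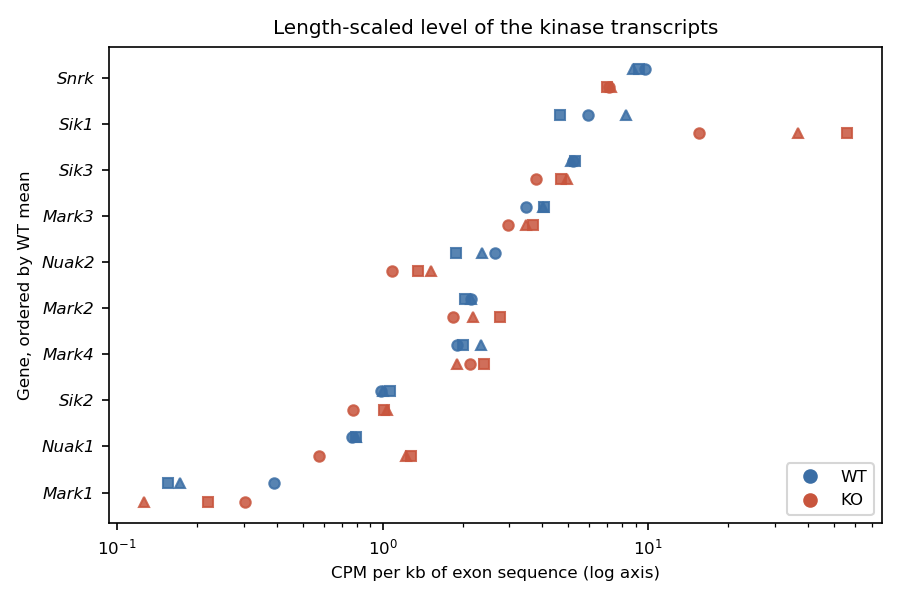
Level of the 10 kinase transcripts per kb of exon sequence in each library, on a log axis, with WT in blue and KO in red and genes ordered by the WT mean. Circles, squares and triangles are replicates 1, 2 and 3. Snrk is highest in WT (8.80 to 9.72), Sik1 is highest in KO (15.6 to 56.1) and Mark1 is lowest in both groups.

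The log2 differences within the 2 kinds of library were unlike in size for several members. The Xist kind holds only KO 1 and WT 1, so a difference between kinds cannot be told apart from one between single mice. In the test below, the residual spread comes from the Y-linked libraries alone. For 9 of the 10 members the log2 difference between KO and WT was lower in the Xist pair than in the Y-linked libraries, Mark4 being the exception, and the same held for 51.9% of all genes tested. KO 1 was the lowest of the KO libraries for 7 of the 10 members, against 41.2% of all genes. A test of the difference between the 2 kinds (an interaction term in edgeR) passed for 0 of the 10 members, and 2.90% of all genes passed it. Before adjustment, 20.9% of all genes were under 0.05 in this edgeR test, as were Nuak1 (adjusted p = 0.119) and Sik1 (adjusted p = 0.225). The log2 differences of Nuak1, Mark1, Mark2 and Mark4 were opposite in sign between the 2 kinds, and for none of them did the difference pass the adjusted test.

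**Figure D4:**
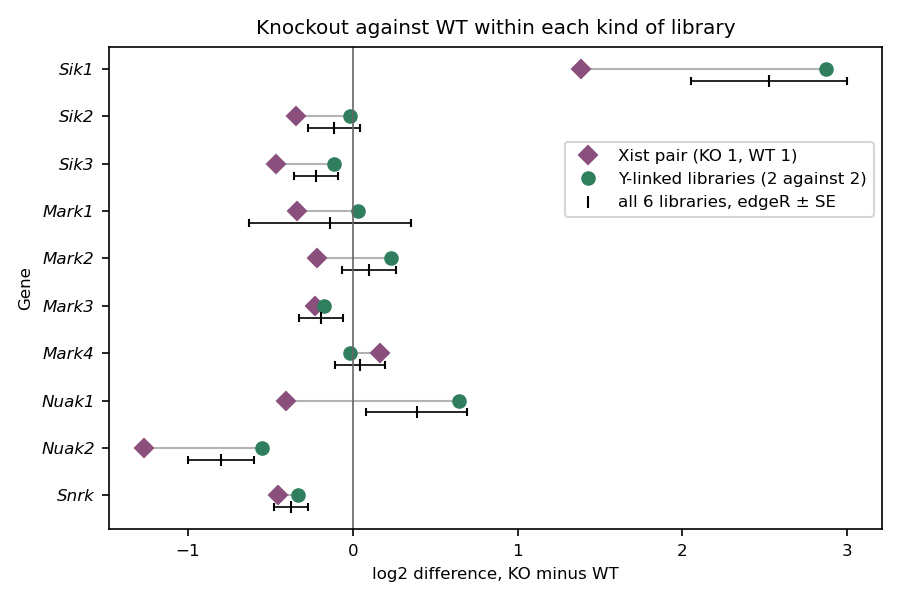
Log2 difference between KO and WT for each kinase within the Xist pair (diamonds, 1 library against 1), within the 4 Y-linked libraries (circles, 2 against 2) and over all 6 libraries (black ticks, edgeR log2 fold change ± SE). Sik1 lies right of 0 in both kinds (1.39 and 2.87), Nuak2, Snrk and Sik3 lie left of 0 in both, and Nuak1 (-0.40 and 0.65), Mark2 (-0.22 and 0.23), Mark1 and Mark4 lie on opposite sides.

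Upstream of the kinases, the LKB1 complex also holds the pseudokinases encoded by Strada and Stradb and the scaffold proteins encoded by Cab39 and Cab39l. Only Stk11 passed the threshold among these 5 genes (log2 fold change -2.06 ± 0.25 SE, adjusted p = 0.0167 in edgeR), and the median of the list was -0.16. None of the 6 AMPK subunit genes tested passed in edgeR, with a median of 0.00, while 1 had an unadjusted p-value under 0.05, 1 was called by DESeq2 and 0 by limma voom. Over all genes, edgeR called 3.37% and DESeq2 15.8%, and 26.3% had an unadjusted p-value under 0.05 in edgeR. The subunit gene with the smallest p-value, Prkab1, which encodes a regulatory beta subunit, was at 22.0, 26.4 and 27.7 CPM in KO and 19.5, 15.0 and 15.6 CPM in WT (log2 fold change 0.60, adjusted p = 0.0755). Prkag3 was not tested because its counts were too low.

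Among the other AMPK-related kinases, 4 of 5 were tested and 0 passed the threshold in edgeR, DESeq2 or limma voom. Before adjustment 1 was under 0.05 in edgeR, against 26.3% of all genes. Nim1k had the smallest p-value, at 1.84, 0.324 and 0.509 CPM in KO and 2.48, 2.62 and 2.87 CPM in WT (log2 fold change -1.57 ± 0.62 SE, adjusted p = 0.167). Its log2 difference was -0.42 in the Xist pair and -2.48 in the Y-linked libraries. The median of this list was -0.63, with all 4 genes at low levels, and Brsk2 was not tested.

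The direct substrates of the SIK enzymes were examined as a list of the CRTC coactivators and class IIa histone deacetylases. Of these 7 genes 0 passed the threshold in edgeR, 1 in DESeq2 and 0 in limma voom, and the median log2 fold change was -0.29. Before adjustment 3 were under 0.05 in edgeR, against 26.3% of all genes. The share of all genes called by DESeq2 was 15.8%. Crtc3 had the smallest p-value, at 9.74, 11.6 and 8.60 CPM in KO and 12.6, 15.4 and 17.5 CPM in WT (log2 fold change -0.60 ± 0.18 SE, adjusted p = 0.0983 in edgeR). Crtc2, the CRTC coactivator best known in liver, which was picked here after its values were seen, was at 21.3, 31.9 and 30.0 CPM in KO and 20.1, 20.5 and 20.9 CPM in WT. Every KO library lay above every WT library for Crtc2 and below for Crtc3, and Crtc2 did not pass either (adjusted p = 0.159 in edgeR). Crtc1 was also lower without overlap, at 7.34, 5.80 and 5.22 CPM in KO and 8.79, 8.47 and 7.78 CPM in WT (adjusted p = 0.164 in edgeR). These 3 were the only genes of the 7 without overlap, where 32.4% of all genes tested had none.

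Of 10 genes that carry the glucagon signal to CREB, 1 was called in edgeR, against 3.37% of all genes, and the median was 0.00. The 1 gene was Crem, which encodes a CREB family factor and is itself a CREB target. It was at 45.8, 52.0 and 61.0 CPM in KO and 22.7, 28.1 and 21.6 CPM in WT (log2 fold change 1.13 ± 0.16 SE, adjusted p = 0.0255). The glucagon receptor gene Gcgr and the kinase A subunit genes were not called.

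Like Sik1, known CREB targets were mostly higher in KO. The list of 15 targets was chosen with earlier results of these data known, so that its direction is no independent evidence. Of the 15 genes, 6 passed the threshold as higher and 0 as lower, where 2.15% and 1.22% of all genes did. For 13 the groups did not overlap, as for 32.4% of all genes, and the median log2 fold change was 1.79 against 0.01 over all genes. Pck1 and G6pc, which encode enzymes of gluconeogenesis and were picked here after their values were seen, were not called. Pck1 was higher without overlap (log2 fold change 0.98 ± 0.30 SE, adjusted p = 0.101 in edgeR). G6pc overlapped (log2 fold change 0.09 ± 0.35 SE, adjusted p = 0.889 in edgeR). Pde4d, a cAMP-degrading phosphodiesterase, was at 16.5, 49.6 and 44.8 CPM in KO and 5.60, 4.90 and 4.58 CPM in WT (log2 fold change 2.88 ± 0.41 SE, adjusted p = 0.0249 in edgeR). Pde4d had the same order of KO libraries as Sik1, with KO 1 lowest and KO 2 highest.

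The nuclear receptor gene Nr4a1 was at 30.5, 53.9 and 47.5 CPM in KO and 4.10, 8.62 and 8.13 CPM in WT, and its relative Nr4a2 was at 10.1 ± 4.59 CPM in KO and 0.602 ± 0.193 CPM in WT (SD, n = 3 each), without overlap. Ppargc1a, a coactivator of gluconeogenic and mitochondrial genes, was at 24.7, 75.2 and 76.4 CPM in KO and 12.3, 5.75 and 4.28 CPM in WT. Tat, the tyrosine aminotransferase gene, was at 3005, 3409 and 5971 CPM in KO and 1058 to 1190 CPM in WT. Adjusted p-values of these 4 genes ran from 0.0103 to 0.0446. The log2 difference of KO against WT was 1.00 in the Xist pair and 3.91 in the Y-linked libraries for Ppargc1a, and in the same order 1.54 and 3.29 for Pde4d, 1.51 and 1.94 for Tat, 2.86 and 2.58 for Nr4a1, 3.73 and 3.84 for Nr4a2, and 1.01 and 1.19 for Crem. It was -1.57 and -2.38 for Stk11. KO 1 was the lowest KO library for 12 of the 15 targets, the exceptions being Pck1, Irs2 and G6pc.

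**Figure D5:**
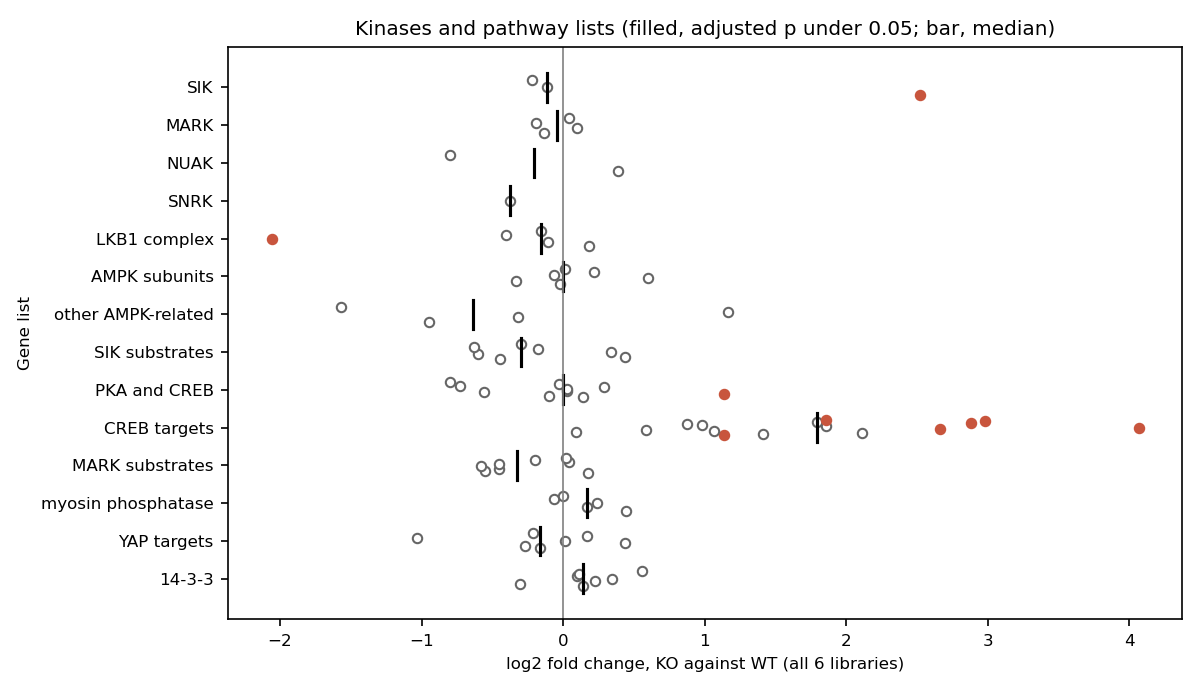
Log2 fold change of KO against WT for each tested gene of the kinase families and of 10 further lists, over all 6 libraries. Filled points passed an adjusted p-value of 0.05 in edgeR and vertical bars are medians. Sik1 and 6 CREB targets are the filled points right of 0, with Crem also shown in its signalling list, and Stk11 is the filled point left of 0.

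No gene for substrates of the other families was called by edgeR. Among 8 tested genes for MARK substrates, 0 passed in edgeR, 1 in DESeq2 and 0 in limma voom, and the median was -0.33. Before adjustment 1 was under 0.05 in edgeR, against 26.3% of all genes, and DESeq2 called 15.8% of all genes. Map4, a microtubule-associated protein of non-neuronal cells, had the smallest p-value, at 35.5, 27.2 and 25.5 CPM in KO and 50.4, 41.3 and 40.1 CPM in WT (log2 fold change -0.58 ± 0.17 SE, adjusted p = 0.0966 in edgeR). The myosin phosphatase list, which holds the NUAK substrates, had 0 of 5 genes called by any of these tools, 0 under 0.05 before adjustment and a median of 0.17. In it Ppp1r12a, which encodes MYPT1, was at 24.6, 31.5 and 27.5 CPM in KO and 23.5 to 23.7 CPM in WT (adjusted p = 0.263).

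Of 7 YAP target genes, examined because Nuak2 is one, 0 were called by edgeR, 1 by DESeq2 and 0 by limma voom, and the median was -0.16. Before adjustment 1 was under 0.05 in edgeR, against 26.3% of all genes, and DESeq2 called 15.8% of all genes. Ccn1, a secreted matrix protein, was at 3.40, 4.84 and 5.37 CPM in KO and 7.43, 9.12 and 11.2 CPM in WT (log2 fold change -1.03 ± 0.24 SE, adjusted p = 0.064). Like Nuak2, it was lower in every KO library and missed the threshold. Of all genes tested, 15.5% were lower in every KO library than in any WT library. The YAP list was mixed, with a positive log2 fold change for 3 genes (Ccn2, Ankrd1 and Axl) and a negative one for 4. Of 7 genes for 14-3-3 proteins, which bind phosphorylated CRTC and deacetylase proteins, 0 were called by any of the 3 tools. In edgeR 2 were under 0.05 before adjustment, against 26.3% of all genes. The median was 0.14, and Ywhab, with the smallest p-value, was at 82.1, 82.9 and 88.4 CPM in KO and 109, 104 and 99.7 CPM in WT (adjusted p = 0.158).

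The genes most like Sik1 in pattern were sought among 7503 genes with a mean of at least 10 CPM, by the Pearson correlation of log2 CPM over the 6 libraries. The 5 highest were Rps29 (0.997), Crebzf (0.997), Rpl12 (0.993), Rrp7a (0.993) and Cnnm2 (0.993). With 6 libraries such values are common, and 372 genes were above 0.95. None of the 5 passed the threshold, and their log2 fold changes, from 0.24 for Rrp7a to 1.26 for Cnnm2, were smaller than that of Sik1. Among the other members the correlation with Sik1 ran from -0.90 for Snrk to 0.70 for Nuak1.

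For the remaining marker lists the summed levels of the 2 groups overlapped. Macrophage markers summed to 92.9 to 220 CPM in KO and 136 to 188 CPM in WT over 6 genes. Bile duct markers summed to 24.8 to 74.2 CPM in KO and 39.5 to 72.7 CPM in WT over 5 genes, and lymphocyte markers were below 2.5 CPM in sum in every library. Markers of dividing cells summed to 48.8 CPM in KO 1 and to between 3.71 and 7.91 CPM in the other 5 libraries. None of these lists had a member at 0 in all libraries or past the threshold in edgeR. Before adjustment 1 lymphocyte gene and 1 gene of dividing cells were under 0.05 in edgeR, as were 26.3% of all genes. DESeq2 called 1 gene of dividing cells and 15.8% of all genes.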

How the data were processed

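The authors deposited 1 table of expected counts per gene, per the labels' file record, for 55450 genes in 6 libraries. The submitters' processing notes name bcl2fastq 2.17, cutadapt 1.18, STAR 2.7.0f, RSEM 1.3.1 and the build mm9, yet all 55450 versioned identifiers matched GENCODE M21 on GRCm38, whose positions are given here. The use of strand is not given in the sources used here. Between 4.93% and 5.47% of a library's values were not whole. Counts were rounded, filtered with filterByExpr, scaled by TMM and tested with glmQLFit and glmQLFTest of edgeR 4.0.16 in R 4.3.3, with Benjamini-Hochberg adjustment over 14539 genes. The SE is the log2 fold change divided by the square root of F. Log2 differences within library kinds use an offset of 0.1 CPM, and correlations a prior count of 2. DESeq2 1.42.0, limma 3.58.1 (voom), 2 other scalings, 2 other filters, a replicate block, leaving out libraries, and the library kind as a term were alternatives. The fit was tested on simulated data with the dispersion estimated from these libraries. It recovered 15 of 100 genes changed 2-fold and 88 of 100 changed 4-fold, and 10 of 113 calls were false. At 0.25 times that dispersion it recovered 87 of 100 genes changed 2-fold and 100 of 100 changed 4-fold, and 20 of 207 calls were false. A gene that missed the threshold may thus still differ by about 2-fold, depending on its own spread. The SE of the log2 fold change ran from 0.10 for Snrk to 0.49 for Mark1 among the members.

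Members and lists were chosen with earlier results of these data known. Genes named are the members, Stk11, from each list all genes past the threshold or otherwise the one with the smallest p-value, the 5 genes most like Sik1, and others as stated. Exon lengths are unions over annotated exons. Groups and replicate numbers come from sample titles. Limits from counting, such as a floor of 3 counts (0.0515 to 0.0641 CPM), cover counting error only.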

Additional observations from a re-analysis of the deposited data

How the results depend on the processing

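Over 15 alternatives each, the direction of Sik1, Sik3, Mark3, Nuak1, Nuak2 and Snrk did not change. The number of genes called was 771 with no filter, 2290 in DESeq2, 4847 in the Y-linked libraries alone and 1504 with the library kind as a term, against 490, and ran from 6 to 4473 when 1 library was left out. Of the 10 members, 3 were called in DESeq2 and 3 in the Y-linked libraries alone, against 1. These fits called 15.8%, 33.3% and 3.37% of all genes, in that order. When 1 library was left out, the number of members called ran from 0 to 4. The 4 were called without KO 1, in a fit that called 30.2% of all genes. DESeq2 gave log2 fold changes of -0.81 for Nuak2 and -0.39 for Snrk, and the Y-linked libraries alone gave 0.65 for Nuak1 and -0.34 for Snrk, all past the threshold. In these libraries the sign turned for Mark1 (0.086) and Mark4 (-0.016). When 1 library was left out, log2 fold changes ran from 2.06 to 2.88 for Sik1, -0.19 to 0.0012 for Sik2, -0.30 to -0.12 for Sik3, -0.46 to 0.40 for Mark1, -0.059 to 0.22 for Mark2, -0.27 to -0.11 for Mark3, -0.037 to 0.14 for Mark4, 0.20 to 0.67 for Nuak1, -0.92 to -0.68 for Nuak2 and -0.41 to -0.34 for Snrk. These refits have fewer samples, and the cause of the changes was otherwise not tested.

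Replicate numbers do not pair the mice by the labels. Deviations of same-numbered libraries from their group means correlated at 0.178, 0.0443 and 0.0679. KO 1 correlated best with WT 1, the other library of the Xist kind, and KO 2 and KO 3 with a library of another number. With the replicate block, 105 genes and 0 members were called, and Sik1 had a log2 fold change of 2.37 (adjusted p = 0.0859 in edgeR). The exon length moved 14 of the 20 levels per kb by more than 1 SD.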
